A study of Homo sapiens with 9 samples.

Results

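The MYC and MAX network was followed in 786-0 cells through 10 genes, MYC, MAX, MXI1, MXD1, MXD3, MXD4, MNT, MLX, MLXIP and MGA. These were taken by name from the table of read counts, which lists 58735 genes, and all 10 were matched by their Ensembl identifiers. 786-0 is an established clear cell renal cell carcinoma line without functional VHL or HIF1α, in which HIF2α is present also in normal oxygen. All 3 groups share this background. RNAseq was performed on untreated 786-0 WT cells, on WT cells given 10 μM PT2385, an antagonist of HIF2α, for 48 h, and on a HIF2α knockout of the line (KO), with 3 replicates of each. All cells were cultured under normoxia for 48 h. The KO group is known from the sample labels, while the study's methods describe RNAseq of untreated and PT2385-treated WT cells only. How the knockout was made and whether its replicates come from 1 line or 1 clone are not given in the sources used here. Whether the untreated cells received vehicle is not given either. Nothing states whether the replicates were separate cultures, so the p-values measure the spread between these libraries only.

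MYC activates transcription as a dimer with MAX at E-box sequences, and drives ribosome synthesis, metabolism and the cell cycle. The MXD proteins (MXD1, MXI1, MXD3 and MXD4), MNT and MGA also pair with MAX and repress transcription from such sites, the MXD proteins and MNT through the corepressors SIN3A and SIN3B. MLX is a second shared partner, which dimerizes with the glucose-sensing activator MLXIP (MondoA) and with some MXD proteins and MNT. In renal cancer HIF2α is known to enhance the activity of MYC, and MXI1 is known as a hypoxia-inducible gene.

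Total counts ran from 11881000 to 14730081 per library, and the 10 genes had between 124 and 5134 counts each. Levels are given as normalised CPM, in which counts are scaled to library size with TMM, with factors from 0.988 to 1.02. EPAS1, the gene of HIF2α, had 233 to 271 CPM in untreated, 219 to 248 in PT2385-treated and 20.3 to 25 in KO cells, so that 8.63% of the untreated level was left in KO. Of 7 renal epithelial markers only CA9 stayed at or under 3 counts in all 9 libraries, and their summed level, most of it from VIM, lay between 5742 and 6300 CPM in every library. Single markers did change. Of the 6 tested, 4 changed upon PT2385 treatment and 4 in KO, where 7.7% and 30.1% of all tested genes did. In both comparisons CDH6, KRT8 and KRT18 were higher and PAX2 lower. With the replicate number as a block 3 were higher and 2 lower upon PT2385 treatment, where 15.3% of all tested genes changed. CDH6, a kidney cadherin, rose by 1.38 upon PT2385 treatment and by 1.03 in KO on the log2 scale, and PAX2, a kidney transcription factor, fell by 0.44 and by 1.30. All 4 leukocyte markers, 3 of 4 endothelial markers and 4 of 6 fibroblast markers were at or under 3 counts in all libraries. The summed fibroblast markers were at 6.45 to 7.58 CPM in untreated, 8.33 to 10.6 in PT2385-treated and 5.18 to 6.87 in KO cells, and the summed endothelial markers were at no more than 0.619 CPM. Both tested fibroblast markers changed in KO, where 30.1% of all tested genes did. COL1A1 went from 5.58 to 2.55 CPM and LUM from 1.45 to 3.21 CPM. The part of these markers in the results for the network was not tested.

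Across the network, MXD4 was the gene that changed most. It was up-regulated upon PT2385 treatment and again in KO, while MLXIP was down-regulated upon PT2385 treatment and MAX was slightly up-regulated in KO. Differences were tested gene by gene with edgeR's quasi-likelihood test on each pair of groups, with adjustment over all tested genes, and a gene was taken as changed at an adjusted p under 0.05. Upon PT2385 treatment 2 of the 10 genes changed, 1 higher and 1 lower, where 7.7% of all 15089 tested genes did (3.08% higher and 4.62% lower). With the replicate number as a block MXD4 and MLXIP were again the 2 genes that changed, at a background of 15.3% (6.83% higher and 8.45% lower). The replicates of 4 of the 10 did not overlap between the groups, against 26.1% of all tested genes (13.4% higher and 12.6% lower). In KO against untreated cells 2 of the 10 changed, both higher, where 30.1% of 15192 tested genes did (14.7% higher and 15.4% lower). The groups did not overlap for 7 of the 10, against 43.8% of all tested genes (20.7% higher and 23.1% lower). Between KO and PT2385-treated cells 1 of the 10 changed, where 18.8% of 15402 tested genes did (8.47% higher and 10.3% lower). The groups did not overlap for 4 of the 10, against 35.4% of all tested genes (16.7% higher and 18.7% lower). The first and second of these comparisons share the untreated libraries.

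**Figure D1:**
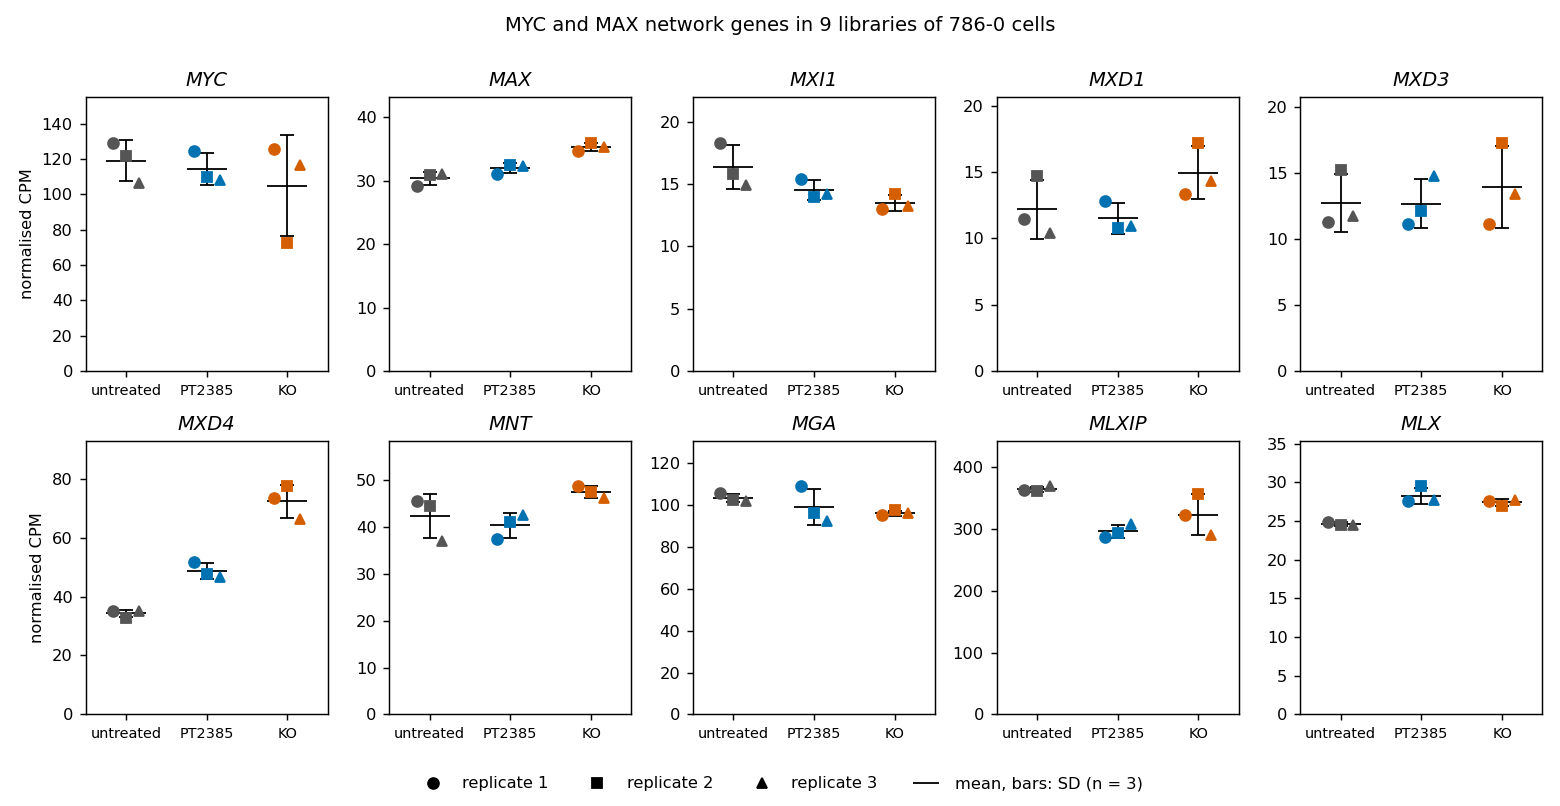
Normalised CPM (y axis, from 0) of the 10 network genes in untreated, PT2385-treated and KO cells, with a symbol for each replicate and black marks for the mean and SD of 3 replicates. The 3 groups of MXD4 do not overlap, with 32.7 to 35 CPM in untreated, 46.6 to 51.6 in PT2385-treated and 66.2 to 77.4 in KO cells.

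MXD4, a repressor of the MXD family (ENSG00000123933, chromosome 4, 2247432 to 2262109 of GRCh38, minus strand), had 35, 32.7 and 35 CPM in the untreated replicates 1, 2 and 3. Upon PT2385 treatment it had 51.6, 47.5 and 46.6 CPM, and in KO 73.3, 77.4 and 66.2 CPM. All treated replicates thus lay above all untreated ones, and all KO replicates above all treated ones. The rise upon PT2385 treatment was 1.41-fold (log2 fold change 0.50, standard error 0.0769, adjusted p = 0.00143, edgeR). In KO it was 2.13-fold (log2 fold change 1.09, standard error 0.0794, adjusted p = 2.16e-06). The direct comparison gave 1.49-fold more in KO than upon PT2385 treatment, with a 95% confidence interval from 1.31 to 1.69 (adjusted p = 8.01e-04, edgeR). MXD4 kept its direction and its adjusted p under 0.05 in these 3 comparisons with each replicate left out in turn and under the 8 other settings tried. These are bulk measurements, in which a change in the share of cells that express a gene and a change in its RNA per cell cannot be told apart. No gene other than the microRNA MIR4800, with 0 counts, overlaps MXD4.

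The 250 bases upstream of the annotated start of MXD4 are shown because this gene moved in both comparisons, that of MLXIP because it moved upon PT2385 treatment, and that of MXI1 because it is the member best known as hypoxia-inducible. The sequences are from RefSeq (GRCh38.p14) and are printed 5′ to 3′ on the strand of the gene. Capitals mark the E-box CACGTG and the cores ACGTG and GCGTG of the hypoxia response element, on either strand. The E-box contains ACGTG on both strands. These windows hold no annotated exon.
MXD4, chr4:2262110-2262359, minus strand: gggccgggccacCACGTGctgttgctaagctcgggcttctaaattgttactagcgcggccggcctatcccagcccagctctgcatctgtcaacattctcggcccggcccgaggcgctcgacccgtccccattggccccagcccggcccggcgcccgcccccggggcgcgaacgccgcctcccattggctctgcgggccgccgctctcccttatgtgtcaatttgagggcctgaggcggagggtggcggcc
MLXIP, chr12:122078506-122078755, plus strand: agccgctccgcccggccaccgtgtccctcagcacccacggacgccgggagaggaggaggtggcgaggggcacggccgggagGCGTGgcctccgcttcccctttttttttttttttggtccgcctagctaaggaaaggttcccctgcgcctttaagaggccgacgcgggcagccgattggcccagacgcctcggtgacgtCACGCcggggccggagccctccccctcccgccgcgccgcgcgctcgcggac
MXI1, second of 3 annotated starts, chr10:110209981-110210230, plus strand: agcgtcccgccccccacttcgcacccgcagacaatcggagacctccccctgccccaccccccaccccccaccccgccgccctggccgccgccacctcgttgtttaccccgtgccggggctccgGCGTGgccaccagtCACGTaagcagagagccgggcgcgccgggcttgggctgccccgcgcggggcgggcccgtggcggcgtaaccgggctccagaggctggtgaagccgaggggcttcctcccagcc
The MXD4 window held 1 E-box, which begins 238 bases before the start, and no GCGTG. The MLXIP window held GCGTG at 169 and 51 bases before the start, the latter on the opposite strand, and the MXI1 window held GCGTG at 127 and ACGTG, on the opposite strand, at 113. The printed MXI1 window was the only one of 3 with both cores. At the first MXI1 start neither core was found, and at the third GCGTG alone. Windows of 9 of the members, all but MYC, were searched. With alternative starts, 3 each for MGA and MXI1 and 2 for MAX, there were 14 windows. An E-box was found in 3 of them (21.4%), those of MXD4, MNT and MLX, against 6.34% of all 35116 windows of this length. ACGTG was found in 6 of 14 (42.9%) against 18.5% of all windows, and GCGTG in 7 of 14 (50%) against 32.2%. The 6 windows with ACGTG include the 3 with an E-box, which contains it, so these 2 shares are not separate. The MAX window with ACGTG had 230 of its 250 bases in annotated exons. Such matches describe the letters in these windows and do not show binding.

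The 3 other MXD genes did not pass the test in any comparison. MXI1 (ENSG00000119950, chromosome 10, 110207605 to 110287365) had 18.3, 15.8 and 14.9 CPM in untreated, 15.4, 13.9 and 14.2 in PT2385-treated and 13.0, 14.2 and 13.2 in KO cells. Its highest KO replicate lay below its lowest untreated one, while the PT2385-treated and untreated replicates overlapped. The log2 fold change was -0.18 upon PT2385 treatment (95% confidence interval -0.42 to 0.07, adjusted p = 0.418, edgeR) and -0.27 in KO (-0.53 to -0.01, adjusted p = 0.115). The lower bound in KO corresponds to 0.694 of the untreated level. Reads were summed over all transcripts of MXI1, so its alternative starts were not told apart.

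MXD1, an MXD repressor linked to differentiation, had 11.5, 14.7 and 10.4 CPM in untreated, 12.8, 10.8 and 10.9 in PT2385-treated and 13.4, 17.2 and 14.3 in KO cells. All KO replicates lay above all PT2385-treated ones, but the log2 difference of 0.38 did not pass the test after adjustment (standard error 0.137, adjusted p = 0.0819, edgeR). Against untreated cells it was 0.31 in KO, with an adjusted p of 0.156. MXD3, the family member linked to the cycling state, had 11.2 to 15.3 CPM in untreated, 11.2 to 14.8 in PT2385-treated and 11.1 to 17.3 in KO cells, and the groups overlapped throughout. Its log2 fold changes were -0.01 upon PT2385 treatment (0.01 with upper-quartile or library-size scaling) and 0.15 in KO, which became -0.04 without KO replicate 2. Exons of MXD3 share 24.2% of their bases with PRELID1 on the other strand and 19.5% with RAB24. PRELID1 was counted at 17030 reads in all libraries together, and MXD3 at 1558. Whether strand was used in counting is not given in the sources used here.

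MYC itself (ENSG00000136997, chromosome 8, 127735434 to 127742951) had 129, 122 and 107 CPM in the untreated replicates and 125, 109.9 and 108 CPM upon PT2385 treatment. The KO replicates 1, 2 and 3 had 126, 72.4 and 117 CPM, so that KO replicate 2 lay below all other libraries while the 2 other KO replicates lay within the range of untreated cells. The log2 fold change upon PT2385 treatment was -0.07 (standard error 0.0839, adjusted p = 0.717, edgeR), and its 95% confidence interval ran from 0.842 to 1.08 of the untreated level. In KO it was -0.17 (standard error 0.163, adjusted p = 0.477), with an interval from 0.693 to 1.14 of the untreated level. Without KO replicate 2 the log2 fold change in KO was 0.04, with an adjusted p of 0.797, and the difference from PT2385-treated cells turned from -0.12 to 0.09. A change in MYC mRNA was thus not detected, and a change in either direction within these intervals remains possible.

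Of the paralogs of MYC, MYCN had 0 counts in all 9 libraries, which allows up to 3 counts or 0.253 CPM in the shallowest library. MYCL was counted at 28, 18 and 35 reads in untreated, 33, 28 and 35 in PT2385-treated and 4, 7 and 10 in KO cells. All KO replicates lay below all others. In KO MYCL fell by 2.14 on the log2 scale against untreated cells (standard error 0.383, adjusted p = 0.00157, edgeR) and by 2.24 against PT2385-treated cells (adjusted p = 7.85e-04). The 21 summed counts in KO against 81 in untreated cells amount to 22.3% of the untreated level, with an exact 95% interval from 13.1% to 36.4% that covers counting error only. In PT2385-treated cells MYCL did not pass the test (log2 fold change 0.09, adjusted p = 0.894), and the value was -0.13 without untreated replicate 2.

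MAX, the shared partner (ENSG00000125952, chromosome 14, 65006174 to 65102695), had 29.1, 30.9 and 31.0 CPM in untreated, 31.1, 32.5 and 32.3 in PT2385-treated and 34.6, 36.0 and 35.4 in KO cells. The 3 groups did not overlap. The difference between KO and untreated cells was 1.18-fold (log2 fold change 0.23, standard error 0.0764, adjusted p = 0.0393, edgeR). Its call was the least stable of the network, since the adjusted p lay between 0.0532 and 0.124 with any 1 of the 6 replicates left out, at 0.112 with DESeq2 and at 0.113 without the filter on low counts. Upon PT2385 treatment the log2 fold change was 0.07 (adjusted p = 0.659). FNTB lies on the other strand and shares 13.1% of the exon bases of MAX. It was counted at 544 reads in all libraries together, and MAX at 3853.

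MNT, a broadly expressed repressor that pairs with MAX and MLX, had 45.6, 44.5 and 37.0 CPM in untreated, 37.5, 41.0 and 42.5 in PT2385-treated and 48.7, 47.4 and 46.1 in KO cells. All KO replicates lay above all replicates of the other groups. The log2 difference was 0.23 from PT2385-treated cells (adjusted p = 0.0734, edgeR) and 0.18 from untreated cells (adjusted p = 0.170), so neither passed the test. MGA, a large repressor that joins MAX to a Polycomb complex, had 102 to 106 CPM in untreated, 92.2 to 109 in PT2385-treated and 95.1 to 97.5 in KO cells. All of its log2 fold changes were within 0.09 of 0, with adjusted p of 0.277 or more. The 95% confidence intervals for MGA ran from 0.856 to 1.07 of the untreated level upon PT2385 treatment and from 0.860 to 1.03 in KO.

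MLXIP, the glucose-sensing activator (ENSG00000175727, chromosome 12, 122078756 to 122147344) had 363, 361 and 369 CPM in untreated and 288, 294 and 308 CPM in PT2385-treated cells, with no overlap. It fell to 0.812 of the untreated level (log2 fold change -0.30, standard error 0.0544, adjusted p = 0.00467, edgeR), and the adjusted p stayed at 0.0415 or less with each replicate left out. In KO the replicates had 322, 356 and 290 CPM, all below the untreated ones but more scattered, and the log2 fold change of -0.16 did not pass the test (adjusted p = 0.128). Without KO replicate 2 it was -0.24 with an adjusted p of 0.0235. KO and PT2385-treated cells did not differ beyond their spread (log2 difference 0.12, 95% confidence interval -0.06 to 0.30, adjusted p = 0.345). MLX, its partner, had 24.9, 24.5 and 24.5 CPM in untreated, 27.6, 29.5 and 27.7 in PT2385-treated and 27.6, 26.9 and 27.7 in KO cells. Every treated and every KO replicate lay above every untreated one, but the log2 fold changes of 0.19 and 0.17 had adjusted p of 0.200 and 0.154. Exons of MLX share 18.2% of their bases with PSMC3IP on the other strand. PSMC3IP was counted at 1679 reads in all libraries together, and MLX at 3166.

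MLXIPL, the paralog of MLXIP, had 0 counts in all libraries. TXNIP and ARRDC4, arrestin family genes that are the best known targets of MLXIP, were followed as its readout. TXNIP had 6.04, 11.8 and 11.2 CPM in untreated, 8.40, 9.66 and 16.1 in PT2385-treated and 19.8, 15.3 and 40.6 in KO cells. It was up-regulated 2.63-fold in KO against untreated cells (95% confidence interval 1.57 to 4.42, adjusted p = 0.00945, edgeR), and KO replicate 3 lay furthest from the others. Without that replicate the log2 fold change of TXNIP was 0.87 in place of 1.40. Against PT2385-treated cells the log2 difference was 1.14 (adjusted p = 0.0399), but the groups overlapped, and the call was lost with DESeq2 (adjusted p = 0.111) and without PT2385 replicate 1, PT2385 replicate 2, KO replicate 1 or KO replicate 3, at adjusted p from 0.0548 to 0.141. Upon PT2385 treatment TXNIP had a log2 fold change of 0.24 (adjusted p = 0.666), which turned to -0.01 without untreated replicate 1 and -0.10 without PT2385 replicate 3. ARRDC4 had 1.53 to 5.67 CPM over all libraries and did not pass the test in any comparison, with a log2 fold change of 0.00 upon PT2385 treatment and -0.59 in KO (adjusted p = 0.217). Without KO replicate 3 the latter was -1.10 with an adjusted p of 0.00835.

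**Figure D2:**
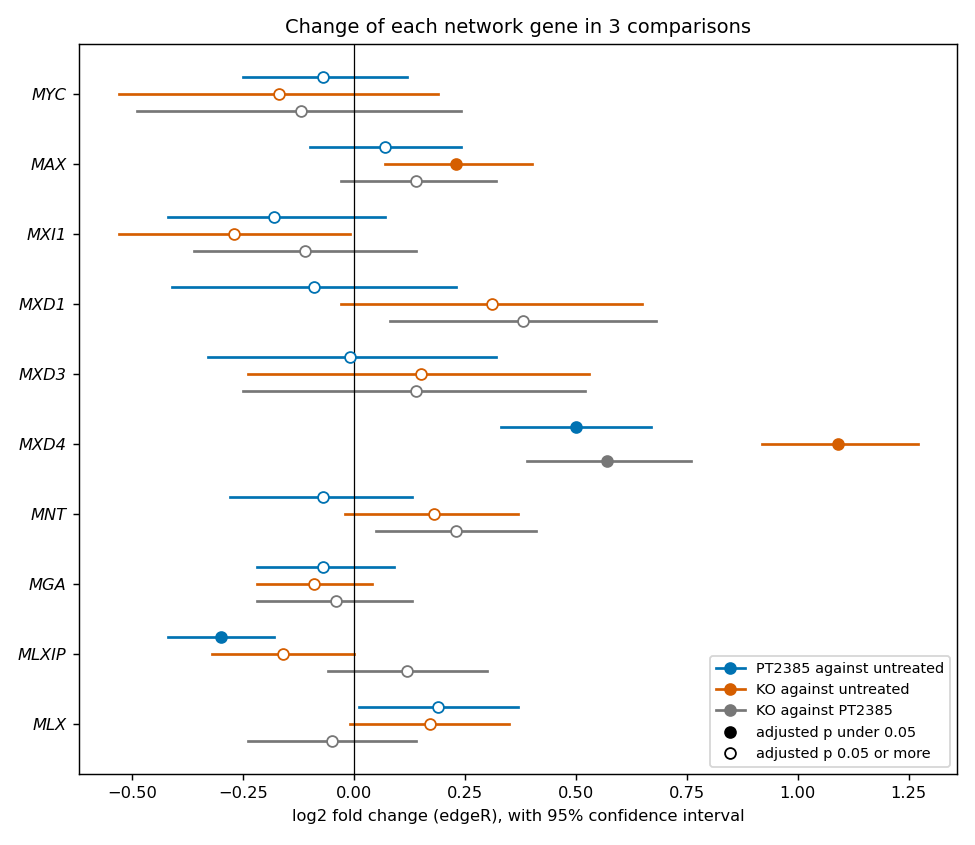
Log2 fold change (x axis) of each of the 10 network genes from edgeR with its 95% confidence interval, for PT2385 against untreated cells, KO against untreated cells and KO against PT2385-treated cells. Filled points mark an adjusted p under 0.05, which are MXD4 in the 3 comparisons, MLXIP upon PT2385 treatment (-0.30) and MAX in KO (0.23).

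To compare the levels of different genes, CPM were divided by the length of the merged exons of each gene in kb. In untreated cells MLXIP was highest, at 26.3 ± 0.307 CPM per kb (SD, n = 3), followed by MYC at 19.5 ± 1.89. MLX had 5.79 ± 0.0578, MGA 5.15 ± 0.0964, MXD4 4.98 ± 0.191, MNT 4.87 ± 0.537 and MAX 4.85 ± 0.168 CPM per kb, and from MGA to MAX the ranges of neighbours overlapped. MXI1 (2.77 ± 0.297) and MXD3 (2.69 ± 0.461) also overlapped, and MXD1 was lowest at 1.92 ± 0.350. Upon PT2385 treatment MXD4 stood directly below MYC, with 7.07 ± 0.390 CPM per kb, where its range overlapped that of MLX. In KO MXD4 reached 10.5 ± 0.825 CPM per kb, above the range of MLX and below that of MYC, while MXI1 became the lowest gene with a range that overlapped that of MXD1. These levels rest on the exons of all annotated transcripts, and a gene expressed mainly from a short transcript reads too low on this scale.

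MXD4 made up 40.4% ± 3.42 of the summed level per kb of the 4 MXD genes in untreated cells, 50.4% ± 1.82 in PT2385-treated and 58.2% ± 2.92 in KO cells (SD, n = 3). The summed level itself was 12.4 ± 0.623 CPM per kb in untreated, 14 ± 0.487 in PT2385-treated and 18.1 ± 1.67 in KO cells. The ratio of MYC to the 4 MXD genes was 1.58 ± 0.117 in untreated cells, 1.33 ± 0.0721 upon PT2385 treatment and 0.969 ± 0.328 in KO. In the untreated libraries the ratio lay between 1.49 and 1.71, in the PT2385-treated libraries between 1.26 and 1.41, and in the KO replicates 1, 2 and 3 it was 1.19, 0.592 and 1.13. The 3 groups did not overlap in this ratio. With MNT and MGA added to the MXD genes, untreated and PT2385-treated libraries did overlap. That ratio was 0.828 to 0.925 in untreated, 0.753 to 0.841 in PT2385-treated and 0.391 to 0.744 in KO cells. These ratios of mRNA levels are descriptions without a test.

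**Figure D3:**
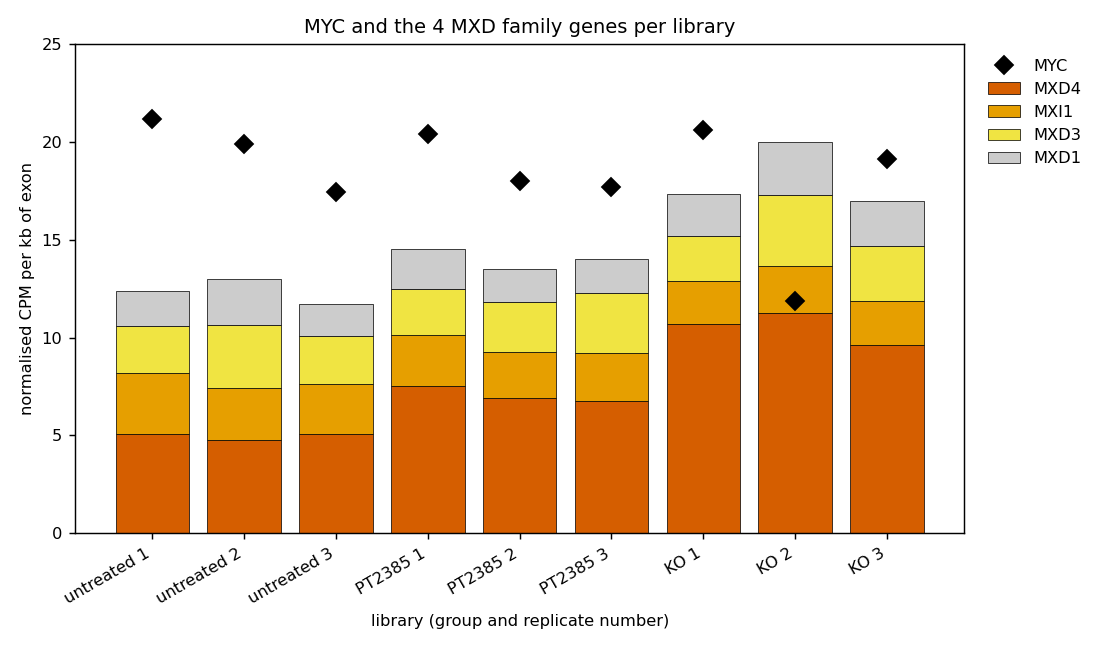
Stacked bars give the normalised CPM per kb of exon (y axis, from 0) of MXD4, MXI1, MXD3 and MXD1 in each of the 9 libraries, and the diamonds give MYC. MYC lies above the MXD stack in every library except KO replicate 2, where MYC was at 11.9 CPM per kb.

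The proteins that work with the network were followed in a list of 36 cofactor genes, 35 of which were tested. In KO 7 of these changed against untreated cells (20%), 2 higher and 5 lower, at a background of 30.1%, and the median log2 fold change was -0.03 against 0.00 over all tested genes. SIN3A, the corepressor scaffold that MXD proteins and MNT recruit, had 121, 126 and 121 CPM in untreated, 115, 121 and 125 in PT2385-treated and 74.8, 84.8 and 74.9 in KO cells. It was the only one of 5 corepressor genes to change in KO, to 0.643 of the untreated level (log2 fold change -0.64, standard error 0.0688, adjusted p = 4.58e-05, edgeR). PT2385-treated and untreated cells differed by -0.03, and KO lay below PT2385-treated cells by 0.62 on the log2 scale (adjusted p = 2.65e-04). RNF2, a Polycomb ubiquitin ligase of the MGA complex, had 54.7, 56.7 and 53.9 CPM in untreated and 35, 33.5 and 36.2 in KO cells, a log2 fold change of -0.65 (adjusted p = 4.98e-05), while PT2385-treated cells had 54.9 to 59.3 CPM. Another subunit of that complex, L3MBTL2, was lower in KO than upon PT2385 treatment, with a log2 difference of -0.29 (adjusted p = 0.0138), a call that was lost without PT2385 replicate 2 or KO replicate 1 (adjusted p up to 0.0937). ZBTB17 (MIZ1), which tethers MYC to genes that it represses, was slightly higher in KO than in untreated cells (log2 fold change 0.26, adjusted p = 0.0431). This call was lost with DESeq2 (adjusted p = 0.0985), without the filter on low counts (0.0869) and with any 1 replicate other than KO replicate 2 left out, at adjusted p up to 0.151.

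CIP2A, which protects the MYC protein from degradation, was lower in both comparisons, with 153 ± 6.36 CPM in untreated, 125 ± 13.3 in PT2385-treated and 116 ± 6.51 in KO cells (SD, n = 3). Its log2 fold change was -0.30 upon PT2385 treatment (adjusted p = 0.0405, edgeR) and -0.39 in KO (adjusted p = 8.87e-04). FBXO32, a ubiquitin ligase subunit known to act on MYC, rose 2.17-fold in KO, from 6.15 ± 1.34 to 13.2 ± 1.87 CPM (adjusted p = 6.91e-04). Upon PT2385 treatment CIP2A was the only 1 of the 35 tested cofactor genes to change (2.86%, background 7.7%). With the replicate number as a block 7 changed (20%, background 15.3%), 6 higher and 1 lower. Without any 1 of the untreated replicates 1, 2 and 3 or PT2385 replicate 2 the count was 0. CIP2A was also lost without PT2385 replicate 3 (adjusted p = 0.0525), where another gene was called higher, and with library-size scaling (adjusted p = 0.0607). In KO against untreated cells 4 changed without untreated replicate 2 or KO replicate 1. Between KO and PT2385-treated cells 8 changed (22.9%), 1 higher and 7 lower, which fell to 3 without PT2385 replicate 2 or KO replicate 1, 4 without KO replicate 2 and 5 without PT2385 replicate 3.

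Genes known to be activated by MYC were followed in a list of 72, of which 71 were tested, and most did not pass the test in each comparison. Upon PT2385 treatment 9 changed (12.7%, background 7.7%), 4 higher and 5 lower. With the replicate number as a block 20 changed (28.2%, background 15.3%), 13 higher and 7 lower. Without the block these genes had a median log2 fold change of 0.08 against 0.00 over all tested genes. In KO 14 changed against untreated cells (19.7%, background 30.1%), 3 higher and 11 lower, with a median of -0.04. Of the 29 genes for ribosome biogenesis 2 were higher and 0 lower upon PT2385 treatment (8 higher and 0 lower with the block), and 2 were higher and 1 lower in KO. In the group for nutrient uptake and glycolysis 5 of 7 fell upon PT2385 treatment, with and without the block, and 4 of 7 fell and 1 rose in KO. In the group for the cell cycle and other functions 0 of 9 changed upon PT2385 treatment (1 lower with the block), and 4 of 9 fell in KO. These 4 were MCM5, a helicase subunit of DNA replication (log2 fold change -0.53), TERT (-0.75), PTMA, prothymosin alpha (-0.23), and APEX1, a DNA repair enzyme (-0.24), of which MCM5, PTMA and APEX1 were named after their values were seen. Genes of the group for nutrient uptake and glycolysis, such as LDHA, are also known as targets of HIF.

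SLC7A5, a transporter of large neutral amino acids, had 2222, 2305 and 2407 CPM in untreated, 988, 1011 and 1244 in PT2385-treated and 591, 608 and 803 in KO cells. Its log2 fold change was -1.10 upon PT2385 treatment (adjusted p = 2.65e-06, edgeR) and -1.78 in KO (adjusted p = 3.27e-07), and KO lay below PT2385-treated cells by 0.70 (adjusted p = 0.00243). LDHA, which makes lactate from pyruvate, had 1249 ± 31.5 CPM in untreated, 745 ± 45.5 in PT2385-treated and 880 ± 38.0 in KO cells (SD, n = 3). LDHA fell by 0.75 upon PT2385 treatment and by 0.49 in KO on the log2 scale, and KO lay above PT2385-treated cells by 0.24 (adjusted p = 0.0285). The latter difference was lost without PT2385 replicate 1, PT2385 replicate 2, KO replicate 1 or KO replicate 2, at adjusted p up to 0.158. TFRC, the transferrin receptor, fell by 0.38 upon PT2385 treatment (adjusted p = 0.00159) and by 0.39 in KO (adjusted p = 5.90e-04). PKM, the last enzyme of glycolysis, fell by 0.53 in KO (adjusted p = 5.65e-04), whereas ENO1, another glycolytic enzyme, rose by 0.20 (adjusted p = 0.0173), which was lost without untreated replicate 1 or 2 (adjusted p up to 0.0816).

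Among the genes for growth, RRP9, which takes part in ribosomal RNA processing, rose by 0.44 on the log2 scale upon PT2385 treatment (adjusted p = 0.0127, edgeR), and ODC1, the first enzyme of polyamine synthesis, rose by 0.35 (adjusted p = 0.0310). MYBBP1A, a nucleolar protein, rose by 0.35 upon PT2385 treatment (adjusted p = 0.0369) and by 0.41 in KO (adjusted p = 0.00797), and POLR1B, a subunit of RNA polymerase I, rose by 0.22 in KO (adjusted p = 0.0249). The calls of RRP9, ODC1 and MYBBP1A upon PT2385 treatment were lost without untreated replicate 1, untreated replicate 2 or PT2385 replicate 2, those of ODC1 and MYBBP1A also without untreated replicate 3, at adjusted p up to 0.161, while all 3 held with the replicate block. With all 9 libraries in one model ODC1 (adjusted p = 0.161) and MYBBP1A (0.0849) were lost. That of POLR1B in KO was lost with DESeq2 (adjusted p = 0.0653), without the filter on low counts (0.0636) and without KO replicate 1 or any 1 of the untreated replicates (up to 0.0903). NIP7, a ribosome biogenesis factor, was lower in KO than upon PT2385 treatment by 0.68 (adjusted p = 0.00355). TERT, the catalytic subunit of telomerase, had 10.8 ± 0.364 CPM in untreated, 11.4 ± 1.32 in PT2385-treated and 6.35 ± 1.55 in KO cells (SD, n = 3), and KO was lower than PT2385-treated cells (log2 difference -0.85, adjusted p = 0.00800). The counts of this list depended on single libraries. Upon PT2385 treatment 3 genes, all lower, were left without untreated replicate 1, untreated replicate 2 or PT2385 replicate 2. In KO 9 changed without untreated replicate 2 and 26, of which 23 were lower, without KO replicate 3. Between KO and PT2385-treated cells 9 changed (12.7%, background 18.8%), against 4 without PT2385 replicate 2, 5 without KO replicate 1 and 25 without KO replicate 3.

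**Figure D4:**
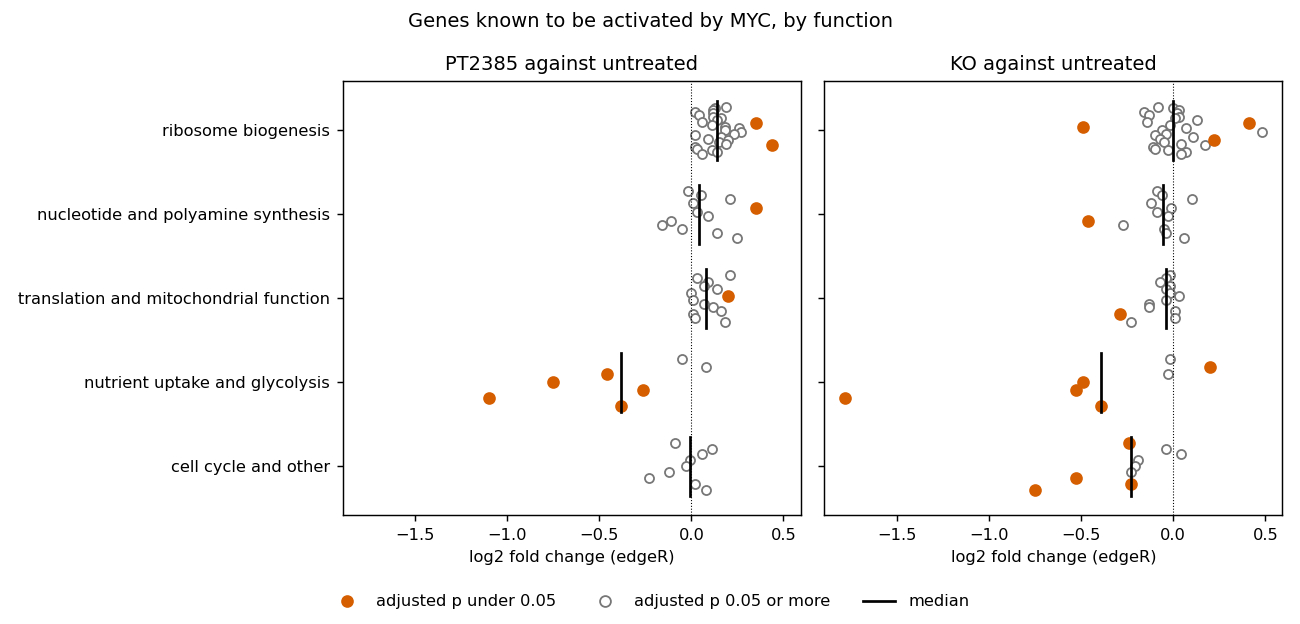
Log2 fold change (x axis) of the 71 tested genes known to be activated by MYC, in 5 functional groups, upon PT2385 treatment and in KO against untreated cells. Filled points mark an adjusted p under 0.05 and black lines the medians, which lie at -0.38 upon PT2385 treatment and -0.39 in KO for nutrient uptake and glycolysis and at 0.14 and 0.00 for ribosome biogenesis.

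Of 16 genes known to be repressed by MYC, 12 were tested. In KO 8 of them changed against untreated cells (66.7%, background 30.1%), 5 higher and 3 lower, with a median log2 fold change of 0.29. This list, like the others, was chosen with earlier results of these data known, so its shares above the background are descriptions only. CDKN1A, the cell-cycle inhibitor p21, had 45.8, 47.2 and 42.6 CPM in untreated, 66.9, 63.8 and 73.1 in PT2385-treated and 204, 232 and 180.0 in KO cells, with no overlap between the groups. It rose 1.5-fold upon PT2385 treatment (log2 fold change 0.58, standard error 0.0769, adjusted p = 4.41e-04, edgeR) and 4.59-fold in KO (log2 fold change 2.20, standard error 0.0951, adjusted p = 3.72e-08). The difference between KO and PT2385-treated cells was 3.02-fold (adjusted p = 2.50e-06). NDRG1, which is also a HIF target, went the other way, from 645 ± 83.1 CPM in untreated to 55.6 ± 4.10 in PT2385-treated and 47.7 ± 5.48 in KO cells (SD, n = 3).

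Upon PT2385 treatment 5 of the 12 changed (41.7%, background 7.7%), 3 higher and 2 lower, and 3 were left without untreated replicate 1, untreated replicate 2 or PT2385 replicate 2. THBS1, an inhibitor of angiogenesis, rose by 0.58 on the log2 scale upon PT2385 treatment (adjusted p = 0.0237, edgeR) and by 0.84 in KO (adjusted p = 0.0129). The call of THBS1 upon PT2385 treatment was lost with DESeq2 (adjusted p = 0.0996), with all 9 libraries in one model (0.144) and without untreated replicate 1, untreated replicate 2 or PT2385 replicate 2 (up to 0.0948). The call in KO was lost with DESeq2 (0.0702) and without untreated replicate 1 (0.0614). GADD45B, a stress-response gene, fell by 0.53 upon PT2385 treatment (adjusted p = 0.00103). CLU, a secreted chaperone, moved in opposite directions, with 5.78 to 7.58 CPM in untreated, 9.31 to 12 in PT2385-treated and 3.37 to 5.33 in KO cells. Its call upon PT2385 treatment was lost with any 1 replicate other than PT2385 replicate 3 left out (adjusted p up to 0.114), and its call in KO without untreated replicate 1, untreated replicate 2, KO replicate 2 or KO replicate 3 (up to 0.0990). TIMP2, a metalloproteinase inhibitor, was higher in KO, with 217 ± 14.6 CPM against 157 ± 5.78 in untreated cells (adjusted p = 2.78e-04). PDGFRB, a growth factor receptor, had 27, 31 and 28 reads in untreated, 23, 37 and 31 in PT2385-treated and 2, 2 and 0 in KO cells. The 4 summed counts in KO amount to 4.0% of the untreated level, with an exact 95% interval from 1.07% to 10.6%. Between KO and PT2385-treated cells 5 of the 12 genes changed (41.7%, background 18.8%), 3 higher and 2 lower.

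**Figure D5:**
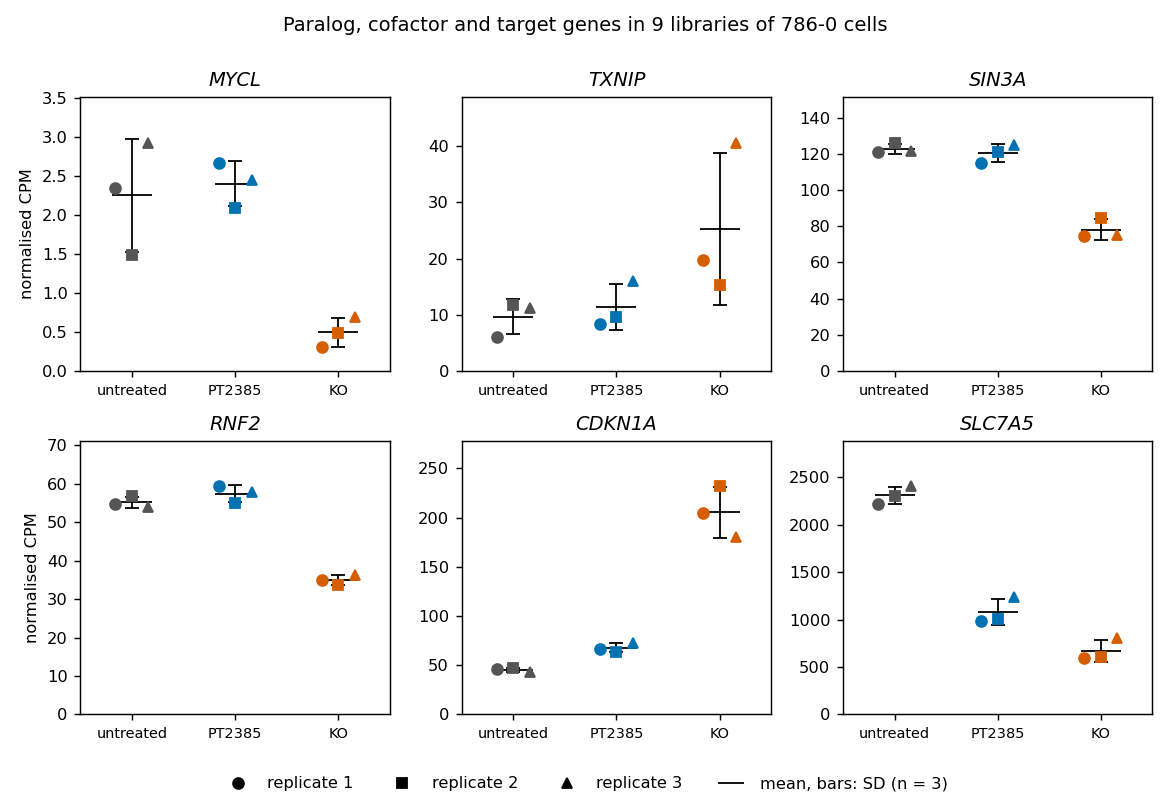
Normalised CPM (y axis, from 0) of the MYC paralog MYCL, the MLXIP target TXNIP, the corepressor SIN3A, the MGA complex gene RNF2 and the targets CDKN1A and SLC7A5 in each replicate of the 3 groups, with the mean and SD of 3 replicates. KO stands apart from both other groups for MYCL, SIN3A and RNF2, whereas SLC7A5 falls and CDKN1A rises in both PT2385-treated and KO cells.

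The genes outside the lists whose levels over the 9 libraries were most like MYC were MIR17HG (Pearson's r = 0.911 on log2 CPM), the host gene of a microRNA cluster known to be activated by MYC, DCLK1, a kinase (0.881), and MYL12A, a myosin light chain (0.878). For MXI1 they were DSTN, an actin-severing protein (0.982), CRNDE, a long noncoding RNA (0.980), and RMND5A, a ubiquitin ligase subunit (0.971). They were taken from 10140 genes with at least 100 counts on average, and the 9 libraries share their groups and scaling, so these values are descriptions. MYC had 72.4 CPM in KO replicate 2 and 107 to 129 CPM in the other libraries. Likeness to MYC thus rests mostly on that 1 library.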

How the data were processed

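RNA was sequenced from 786-0 cells, with 3 untreated, 3 PT2385-treated and 3 HIF2α knockout libraries. According to the study's methods, cutadapt was used for trimming, STAR for alignment to GRCh38, and featureCounts for the number of reads per gene. The deposited values are these counts, whole and not normalized. Versions, annotation release and strandedness are not given in the sources used here. Groups and replicate numbers came from the sample labels, and 0 columns were left without a sample. Symbols, positions and exon lengths came from GENCODE 44, which matched 58207 of 58735 identifiers.

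Each pair of groups was compared with edgeR 4.0.16 in R 4.3.3, with TMM scaling, filterByExpr (minimum count of 10) and the quasi-likelihood F test. P-values were adjusted after Benjamini and Hochberg across every gene tested. On simulated counts for PT2385 against untreated cells (14812 genes) this recovered 62.6% of 99 genes changed by 0.5 and 80.4% of 97 changed by 1 on the log2 scale, and 5.41% of 148 calls were false. Depth limits precision mainly for genes of few counts, and intervals on summed counts cover counting error only. With 3 replicates in each group an exact permutation test on 1 gene cannot give a p below 0.1.

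The network genes and the lists were chosen with earlier results of these data known. Named genes are the network genes, the paralogs, TXNIP, ARRDC4, EPAS1, from each list the 3 changed genes of smallest p per direction whose groups did not overlap, and the 3 genes most like MYC and MXI1. Replicate numbers were taken to pair untreated with PT2385-treated libraries, since deviations from the group means of same-numbered libraries correlated at 0.420, 0.109 and 0.400 across 11487 genes. They were not taken to pair KO libraries, where replicates 1, 2 and 3 correlated at 0.294, 0.0416 and 0.436 with same-numbered untreated libraries. With PT2385-treated libraries these values were 0.323, 0.0715 and 0.386. KO replicate 2 correlated more with untreated replicate 1 (0.26) than with untreated replicate 2. Test values of single genes are from fits without the block unless stated, and so do not use this pairing. With the block 2305 of 15089 tested genes changed upon PT2385 treatment, against 1162 without it. A single gene that did not pass the test upon PT2385 treatment may thus pass it with the block. Of the network genes MXD4 and MLXIP alone changed in both fits. Alternatives were DESeq2 1.42.0, scaling by RLE, by the upper quartile or by library size alone, no filter, at least 10 counts in every library, the replicate block, all 9 libraries in one model, and leaving out each replicate.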

Additional observations from a re-analysis of the deposited data

Results flagged for a closer look

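KO cells differed from PT2385-treated cells in 17 of the genes named here, by the direct comparison of these groups (edgeR, adjusted p under 0.05). Loss of HIF2α and other differences between the KO line and WT cells cannot be told apart in this comparison. Some of the 17 were named because they changed in this same comparison, so their number does not measure how often the groups differ. Of all 15402 tested genes 18.8% changed in it. Values are the log2 difference of KO from PT2385-treated cells. Within the network it was MXD4, at 0.57 (adjusted p = 8.01e-04), with changes of 0.50 upon PT2385 treatment and 1.09 in KO. Of the MYC paralogs it was MYCL, at -2.24, and of the MLXIP targets it was TXNIP, at 1.14 (adjusted p = 0.0399). Among cofactor genes these were SIN3A at -0.62, RNF2 at -0.72, L3MBTL2 at -0.29 and FBXO32 at 1.17. Of these 4, only L3MBTL2 had passed the test in neither comparison with untreated cells. Among genes known to be activated by MYC they were SLC7A5 at -0.70, LDHA at 0.24, PKM at -0.29, NIP7 at -0.68 and TERT at -0.85. SLC7A5 fell more in KO than upon PT2385 treatment, while the smaller fall of LDHA in KO was lost in 4 of 6 fits with a replicate left out (adjusted p up to 0.158). Among genes known to be repressed by MYC they were CDKN1A at 1.59, CLU at -1.35, TIMP2 at 0.51, GADD45B at 0.37 (adjusted p = 0.0470) and PDGFRB at -4.44. The value for PDGFRB depends on the prior count of the model, since the KO replicates had 0 to 2 reads. CLU was the 1 gene of these 17 that passed the test in opposite directions, at 0.66 upon PT2385 treatment and -0.67 in KO, but these calls were lost in 5 of 6 and 4 of 6 fits with a replicate left out. With a replicate left out the difference of GADD45B was lost in 5 of 6 fits (adjusted p up to 0.132), that of TXNIP in 4 of 6 (up to 0.141) and that of L3MBTL2 in 2 of 6 (up to 0.0937). Groups of 3 are too small for a test of single outlying libraries.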

How the results depend on the processing

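The calls of MXD4 in 3 comparisons and of MLXIP upon PT2385 treatment held under all alternatives. The count of network genes changed in KO fell from 2 to 1 with DESeq2 and with no filter on low counts, where MAX was lost, and ran from 1 to 2 with each replicate left out. MAX was lost in all 6 of the latter fits. The 2 genes called without KO replicate 2 were MXD4 and MLXIP. With the replicate block MXD1 was also higher in KO (adjusted p = 0.0462). Of genes known to be activated by MYC, 9 changed upon PT2385 treatment, against 20 with the replicate block, 4 with all 9 libraries in one model and 3 to 12 with each replicate left out. In KO 14 changed, and 9 to 26 with each replicate left out. Between KO and PT2385-treated cells 9 changed, against 16 with no filter, 25 with the replicate block and 4 to 25 with each replicate left out. Of genes known to be repressed by MYC, 5 changed upon PT2385 treatment, and 3 to 6 with each replicate left out. Of cofactor genes, 1 changed upon PT2385 treatment, against 2 with RLE scaling, upper-quartile scaling or no filter, 3 (all higher) with library-size scaling, 7 with the replicate block and 0 to 1 with each replicate left out. In KO 7 changed, and 4 to 8 with each replicate left out. Between KO and PT2385-treated cells 8 changed, and 3 to 7 with each replicate left out. Values that did not pass the test changed sign in 17 fits. Upon PT2385 treatment MXD3 became 0.01 with upper-quartile or library-size scaling, and ARRDC4 was 0.00 with the block. With a replicate left out the ranges there were -0.13 to 0.15 for MXD3, -0.14 to 0.13 for ARRDC4, -0.19 to 0.07 for MXD1, -0.13 to 0.32 for MYCL and -0.10 to 0.41 for TXNIP. In KO against untreated cells they were -0.32 to 0.04 for MYC and -0.04 to 0.29 for MXD3, and in KO against PT2385-treated cells -0.27 to 0.09 for MYC, -0.05 to 0.27 for MXD3 and -0.08 to 0.03 for MGA. Where an alternative drops libraries or genes it tests fewer of them, and otherwise the cause was not tested. The replicate block changed no other of these counts by more than 1.5 times. Over all tested genes it moved the count upon PT2385 treatment from 1162 to 2305.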
